A study of Homo sapiens with 2 samples.

Results

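The mitochondrial genome encodes 7 core subunits of respiratory complex I, and the fragment counts on their 7 genes (MT-ND1, MT-ND2, MT-ND3, MT-ND4L, MT-ND4, MT-ND5 and MT-ND6) are described here. The members were chosen by gene identity, with their counts in both libraries already known, and were given by Ensembl ID: ENSG00000198888.2 (MT-ND1), ENSG00000198763.3 (MT-ND2), ENSG00000198840.2 (MT-ND3), ENSG00000212907.2 (MT-ND4L), ENSG00000198886.2 (MT-ND4), ENSG00000198786.2 (MT-ND5) and ENSG00000198695.2 (MT-ND6). All 7 were found among the 57820 IDs of the count table, within its last 37 rows, which are those of the mitochondrial chromosome. The RefSeq table (GRCh38.p14) lists the same number of mitochondrial genes, namely 13 protein-coding genes, 22 tRNA genes and 2 rRNA genes, and all 7 members matched it by symbol. Their levels and the difference between libraries are therefore descriptions, and no test was made of them.

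The data are ribosome profiling of HEK293 cells, an established human embryonic kidney line. Both libraries are vehicle controls, cells kept for 12 h in DMSO without heat shock, with replicate 1 in batch 1 and replicate 2 in batch 2. For each sample, 2 plates of 15 cm were lysed with cycloheximide present, RNase I trimmed the RNA outside ribosomes, and fragments of 20 to 38 nt were taken from a gel with no removal of ribosomal RNA. Fragments of 27 to 29 nt were counted per gene, and the libraries held 865838 and 611266 counts.

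Complex I (NADH:ubiquinone oxidoreductase) is the entry point of electrons from NADH into the respiratory chain and pumps protons across the inner mitochondrial membrane. Its mitochondrially encoded subunits are hydrophobic proteins of the membrane arm, made inside the organelle by mitochondrial ribosomes and inserted into the inner membrane as they are made, while its other subunits are imported from the cytosol. MT-ND2, MT-ND4 and MT-ND5 are the antiporter-like subunits of the proton channels, and MT-ND5 sits at the far end of the arm. MT-ND1 forms much of the ubiquinone-binding cavity, and the small subunits MT-ND3, MT-ND4L and MT-ND6 lie between MT-ND1 and MT-ND2. MT-ND4L and MT-ND4 are read from 1 mRNA with overlapping reading frames, and MT-ND6 is encoded on the strand opposite to the other members. Cycloheximide binds cytosolic ribosomes and does not act on mitochondrial ones.

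Some facts bear on every value below. Many deposited counts differ from a whole number by more than 0.001, which was also seen for 2 of the 7 members in each library: MT-ND3 and MT-ND4L in replicate 1, and MT-ND5 and MT-ND6 in replicate 2. Among the 2241 IDs with at least 100 summed counts, 14.9% were not whole in replicate 1 and 14.4% in replicate 2. The nuclear genome holds copies of mitochondrial genes, and RefSeq names between 25 (MT-ND3) and 45 (MT-ND5) entries as copies of a member. How the authors assigned fragments that match both was not given in the sources used here, nor was the use of strand, so fragments of MT-ND6 and of antisense RNA from the same stretch cannot be told apart. Positions within the genes are not analysed here. Of the 30 other mitochondrial rows, 15 reached 100 summed counts. That is more than the protein-coding and rRNA genes left outside the members, so tRNA genes, which are not translated, are among them. The part that RNA other than ribosome-protected mRNA plays in the counts of the members was not tested. The labels do not say that the replicates were independent cultures, and replicate and batch cannot be told apart, so an SD over 2 libraries may be partly technical. The intervals given are at 95% and cover counting error only, because copies of 1 molecule made by PCR could not be recognised.

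By counts not scaled for length, the complex I mRNAs were among the higher IDs of the table, and MT-ND5 far exceeded the other members. Together they held 11470 counts in replicate 1, or 1.32% of the library (exact Clopper-Pearson interval 1.30 to 1.35), and 10660 counts in replicate 2, or 1.74% (1.71 to 1.78). The mean share was 1.53% ± 0.296 (SD, n = 2), and the 2 intervals did not overlap. By mean CPM (counts per 1000000 counts of the library), 4 of the 7 ranked among the 100 highest IDs and all 7 among the 1000 highest, of 16465 IDs above 0 in at least 1 library.

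The antiporter-like subunits spanned the whole range of the members. MT-ND5, at the end of the membrane arm, had 5964 counts in replicate 1 and 5666.5 in replicate 2, or 6888 and 9270.1 CPM (mean 8079 ± 1684, SD, n = 2). It ranked 4 in the whole table, below only 1 ID outside the mitochondrial rows. MT-ND4 had 1676 and 1403 counts, or 1936 and 2295 CPM (mean 2115 ± 254, SD, n = 2), and ranked 27. MT-ND2 had 266 and 251 counts, or 307 and 411 CPM (mean 359 ± 73.1, SD, n = 2), and ranked 359. In counts not yet scaled for length, MT-ND5 was thus the highest of the 7 in both libraries and MT-ND2 the lowest.

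MT-ND1, whose protein lines the ubiquinone cavity, had 1497 and 1546 counts, or 1729 and 2529 CPM (mean 2129 ± 566, SD, n = 2), and ranked 26. It was the only member with more counts in replicate 2 than in replicate 1, although replicate 1 held 1.42 times as many counts in all. Of the small subunits, MT-ND6 had 1331 and 1171.5 counts, or 1537 and 1917 CPM (mean 1727 ± 268, SD, n = 2). MT-ND6 is the member read from the opposite strand. MT-ND4L had 390.5 and 340 counts, or 451 and 556 CPM (mean 504 ± 74.4, SD, n = 2). MT-ND3 had 345.5 and 282 counts, or 399 and 461 CPM (mean 430.2 ± 44.1, SD, n = 2). In CPM by library size each member was higher in replicate 2.

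**Figure D1:**
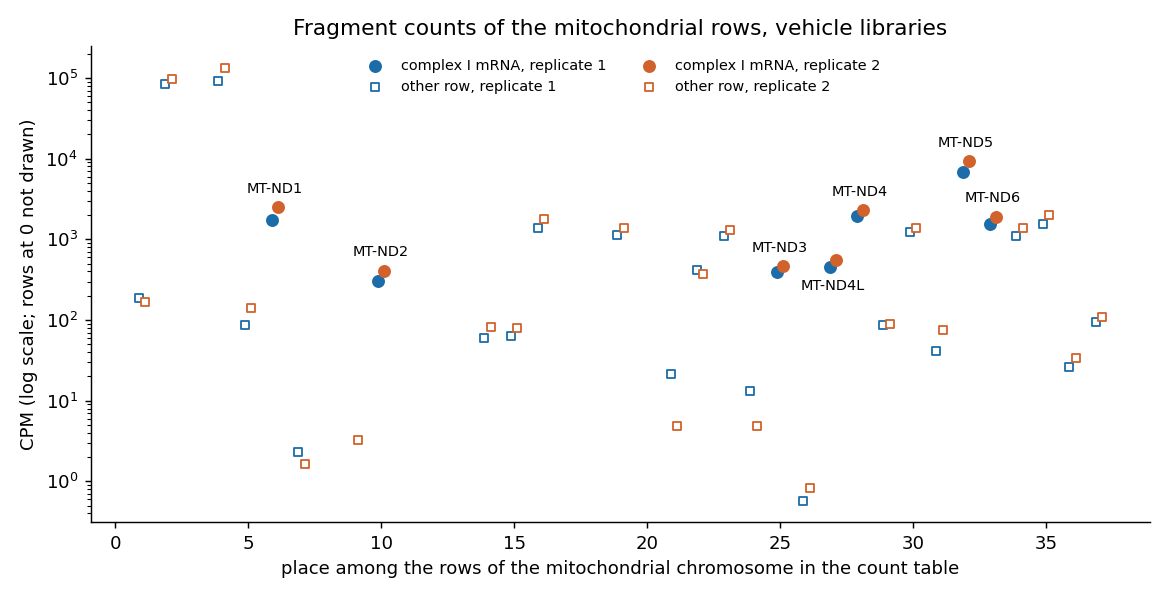
CPM (log scale) of each row of the mitochondrial chromosome against its place among those rows in the count table, for replicate 1 (blue) and replicate 2 (orange), with the 7 complex I mRNAs as filled circles, other rows as open squares and rows at 0 not drawn. MT-ND5, at 6888 and 9270.1 CPM, stood below only the 2 highest rows, and MT-ND2 was the lowest member at 307 and 411 CPM.

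IDs next to a member in mean CPM show how close in level neighbouring IDs were. Directly above MT-ND5 came ENSG00000221740.1 with 7315 and 10518 CPM, and directly below it ENSG00000255717.2 with 8117 and 7195 CPM, so the first was above MT-ND5 in both libraries, and the second was above it in replicate 1 and below it in replicate 2. The likeness is in mean level over 2 libraries. MT-ND1 and MT-ND4 followed each other in rank by mean CPM, and their order changed between the libraries: MT-ND4 was higher in replicate 1 and MT-ND1 in replicate 2.

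As a part of the counts on all 37 mitochondrial rows, the complex I share was nearly the same in both libraries. With the 2 highest rows set aside, it was higher in replicate 2. All 37 rows held 19.8% of replicate 1 and 26.0% of replicate 2, of which the 2 highest rows took 17.6% and 23.2% of the library. Those 2 rows thus made up most of the mitochondrial counts, and they rose by unlike amounts. From replicate 1 to replicate 2, one went from 84838 to 97787 CPM and the other from 90841 to 134667 CPM. The complex I mRNAs made up 6.71% of the mitochondrial counts in replicate 1 (interval 6.59 to 6.83) and 6.70% in replicate 2 (6.58 to 6.82). With the 2 highest rows set aside, they made up 60.7% (59.99 to 61.4) and 62.7% (62.0 to 63.4), intervals that lay apart. MT-ND5 alone made up 31.6% (30.9 to 32.2) and 33.3% (32.6 to 34.0) of those remaining counts. Of the 30 other rows, 8 were at 0 in both libraries, where 0 counts allow up to 3 counts, or 3.46 and 4.91 CPM. Between MT-ND2 and MT-ND5 in mean CPM lay 7 other rows, and 21 lay below MT-ND2. With the 2 highest rows, these 7 outnumber the protein-coding and rRNA genes outside the members. A tRNA gene, which is not translated, therefore lay above MT-ND2 in mean CPM.

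Longer genes gather more fragments, so levels of different genes were compared as fragments per kb per 1000000 counts, with the gene lengths of RefSeq. Mitochondrial genes have no introns, and gene length was taken to stand for coding length. These lengths belong to GRCh38.p14 while the files used hg19, and the annotation the authors counted on was not given in the sources used here. They run from 297 nt for MT-ND4L and 346 nt for MT-ND3 to 1378 nt for MT-ND4 and 1812 nt for MT-ND5.

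Per length, MT-ND5 was still the highest member and MT-ND2 the lowest, and MT-ND6 moved up next to MT-ND5. MT-ND5 had 3801 fragments per kb per 1000000 counts in replicate 1 and 5116 in replicate 2 (mean 4459 ± 930, SD, n = 2). MT-ND6, from a gene of 525 nt, had 2928 and 3651 (mean 3289 ± 511, SD, n = 2). MT-ND1, from 956 nt, had 1809 and 2646 (mean 2227 ± 592, SD, n = 2). These 3 members kept this order in both libraries, and at each step the value of the higher member in its lower library exceeded the value of the lower member in its higher library.

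The middle of the order was closer. MT-ND4L had 1519 and 1873 fragments per kb per 1000000 counts (mean 1696 ± 250.5, SD, n = 2). MT-ND4 had 1405 and 1666 (mean 1535 ± 184, SD, n = 2). MT-ND3 had 1153 and 1333 (mean 1243 ± 127, SD, n = 2). Within replicate 1, MT-ND1 was 1.19 times as high as MT-ND4L, and within replicate 2 it was 1.41 times as high, with counting intervals apart in both, although their ranges over the libraries overlapped. MT-ND4L was 1.08 and 1.12 times as high as MT-ND4, with counting intervals that overlapped in both libraries. MT-ND4 was 1.22 and 1.25 times as high as MT-ND3, with counting intervals apart in both.

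MT-ND2 stood well below all others, with 295 and 394 fragments per kb per 1000000 counts (mean 344 ± 70.2, SD, n = 2). Within replicate 1, MT-ND3, the next member up, was 3.91 times as high, and within replicate 2 it was 3.38 times as high. MT-ND5 was 12.9 times as high as MT-ND2 per kb in replicate 1 (exact binomial interval of the ratio 11.4 to 14.6) and 13.0 times in replicate 2 (11.4 to 14.8). MT-ND2 was lowest although its gene, at 1042 nt, is the third longest of the 7. How fragments that match both MT-ND2 and a nuclear copy were assigned is not known here. The effect of that assignment on this level was not tested. The order of the 7 per length was the same in both libraries.

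**Figure D2:**
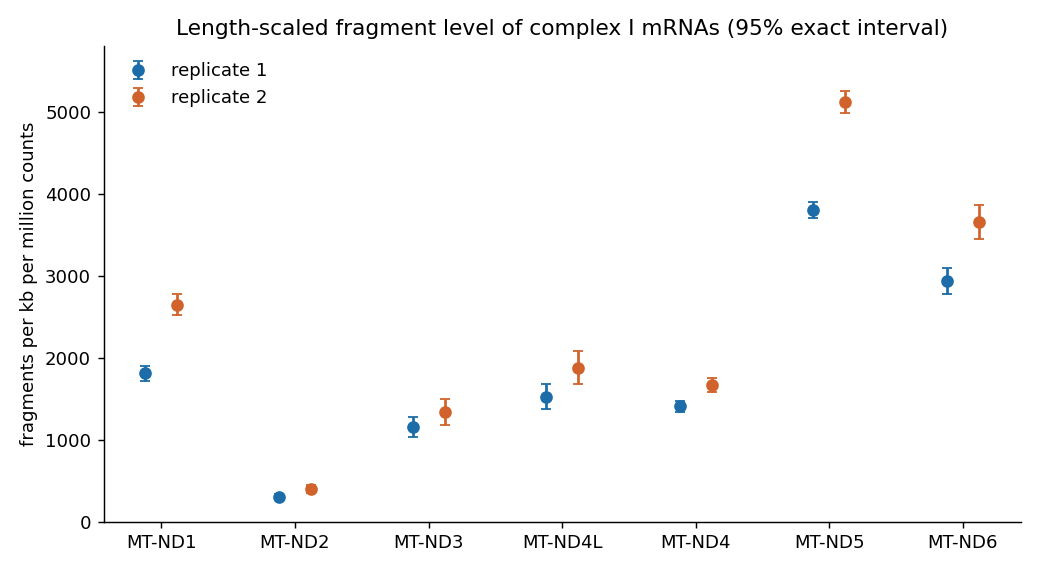
Fragments per kb of gene per 1000000 counts for each complex I mRNA in replicate 1 (blue) and replicate 2 (orange), with 95% exact Clopper-Pearson intervals as bars. MT-ND5 is highest at 3801 and 5116, MT-ND2 lowest at 295 and 394, and every member has its higher value in replicate 2.

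Members that lie next to each other on the chromosome were then compared within each library, which needs no scaling between libraries. MT-ND4L and MT-ND4, which share an mRNA, had near-equal levels per kb, with MT-ND4L at 1.08 times MT-ND4 in replicate 1 (interval 0.965 to 1.21) and 1.12 times in replicate 2 (0.996 to 1.27). Both intervals held equality, and each allows a difference of up to 1.21 or 1.27 times. With 60 nt taken off every gene, an alternative chosen after seeing the data, the ratios became 1.30 (1.16 to 1.45) and 1.35 (1.19 to 1.52). Neither interval then held equality. MT-ND5 and MT-ND6 are neighbours on opposite strands, and MT-ND5 was 1.30 times MT-ND6 per kb in replicate 1 (1.22 to 1.38) and 1.40 times in replicate 2 (1.32 to 1.49). MT-ND3 was 0.759 times MT-ND4L per kb in replicate 1 (0.657 to 0.882) and 0.712 times in replicate 2 (0.606 to 0.836). Against MT-ND4, MT-ND5 was 2.71 times as high per kb in replicate 1 (2.56 to 2.86) and 3.07 times in replicate 2 (2.90 to 3.26), intervals that did not overlap.

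How the complex I counts were divided among the 7 mRNAs was much alike in the libraries, with small shifts for MT-ND1 and MT-ND4. MT-ND5 held 52.0% of the complex I counts in replicate 1 (interval 51.1 to 52.9) and 53.2% in replicate 2 (52.2 to 54.1), a mean of 52.6% ± 0.820 (SD, n = 2). The antiporter-like subunits together held 68.9% (68.1 to 69.8) and 68.7% (67.8 to 69.6), with intervals that overlapped. MT-ND1 held 13.1% (12.4 to 13.7) in replicate 1 and 14.5% (13.8 to 15.2) in replicate 2. MT-ND4 held 14.6% (14.0 to 15.3) and 13.2% (12.5 to 13.8). For these 2 members the intervals of the libraries did not overlap. MT-ND6 held 11.6% and 11.0%, MT-ND4L 3.40% and 3.19%, MT-ND3 3.01% and 2.65%, and MT-ND2 2.32% and 2.35%. For these 4 members and for MT-ND5 the intervals overlapped.

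**Figure D3:**
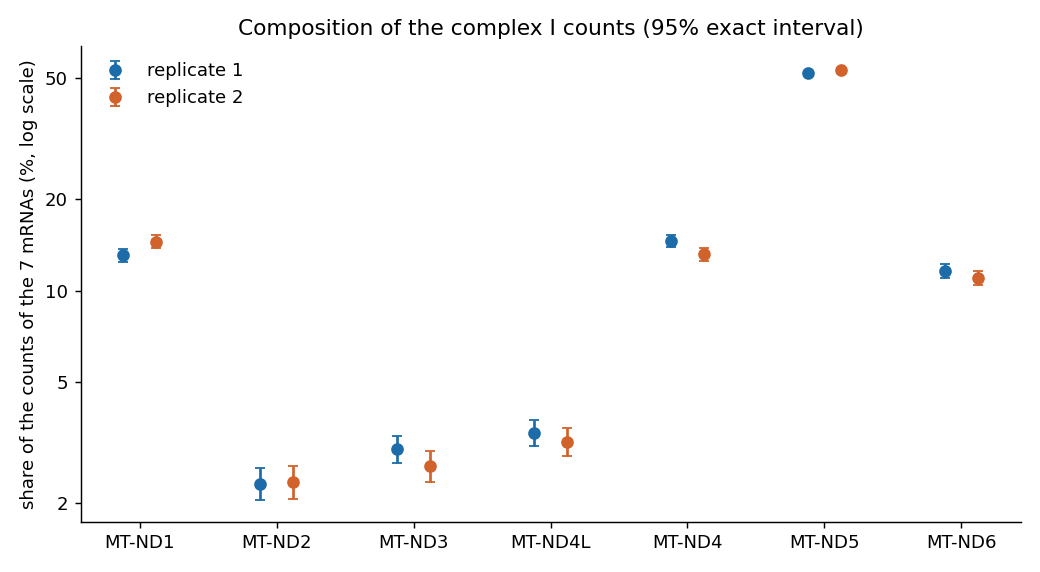
Share of each mRNA in the summed counts of the 7 complex I mRNAs (percent, log scale) in replicate 1 (blue) and replicate 2 (orange), with 95% exact Clopper-Pearson intervals as bars. MT-ND5 holds 52.0% and 53.2%, and the intervals of the libraries lie apart for MT-ND1 (13.1% and 14.5%) and MT-ND4 (14.6% and 13.2%).

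All 7 complex I mRNAs had a higher value in replicate 2 than in replicate 1 after TMM scaling (trimmed mean of M-values, which sets the libraries level over the bulk of IDs), and none differed by 2-fold. The ratio was largest for MT-ND1, with a log2 ratio of replicate 2 over replicate 1 of 0.66 (exact binomial interval 0.55 to 0.76), or 1.58-fold. MT-ND5 had 0.54 (0.49 to 0.59), or 1.45-fold, and MT-ND2 had 0.53 (0.27 to 0.78). MT-ND6 followed with 0.43 (0.31 to 0.54), MT-ND4L with 0.41 (0.20 to 0.63) and MT-ND4 with 0.36 (0.25 to 0.46). The smallest was MT-ND3, with 0.32 (0.08 to 0.55), or 1.25-fold. The intervals compare these libraries, not conditions.

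Of the 2241 IDs with at least 100 summed counts, 15.6% had an interval that lay above equality towards replicate 2, and among the members this held for all 7. The members had 517 (MT-ND2) to 11630 (MT-ND5) summed counts. An ID with more counts has a narrower interval, and the IDs were not matched to the members in depth. Wholly beyond 1.5-fold lay 2.23% of IDs and 0 members, and wholly beyond 2-fold 0.491% of IDs and 0 members. Any higher value in replicate 2, whatever its interval, was seen for 43.2% of those IDs. The median log2 ratio was 0.43 over the 7 members and -0.07 over those 2241 IDs. By library size in place of TMM, 6 members had an interval above equality, against 12.0% of IDs, and MT-ND3 was the one left out, with 0.21 (-0.02 to 0.44). By library size, 33.5% of IDs and all 7 members had the higher value in replicate 2, and the medians were 0.32 and -0.18.

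The same direction was seen over most of the other mitochondrial rows. Of the 18 that reached 20 summed counts, 15 had the higher TMM-scaled value in replicate 2, against the 43.2% of IDs given above. The 43.2% is over IDs with at least 100 summed counts, so the 2 sides differ in their minimum. With the 2 highest rows set aside, the median log2 ratio of the remaining 16 was 0.41. The members' median of 0.43 was close to this value, and no test of the difference was made. Over the 18 rows the log2 ratio ran from -1.97 to 0.97, a wider range than the members' 0.32 to 0.66. The SD of the log2 ratio over the 7 members was 0.12, where counting error alone corresponds to 0.08, and the interval of MT-ND1 lay above those of MT-ND3, MT-ND4 and MT-ND6, as that of MT-ND5 lay above that of MT-ND4. Their median absolute log2 ratio was 0.43, against 0.30 over the 2241 IDs.

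**Figure D4:**
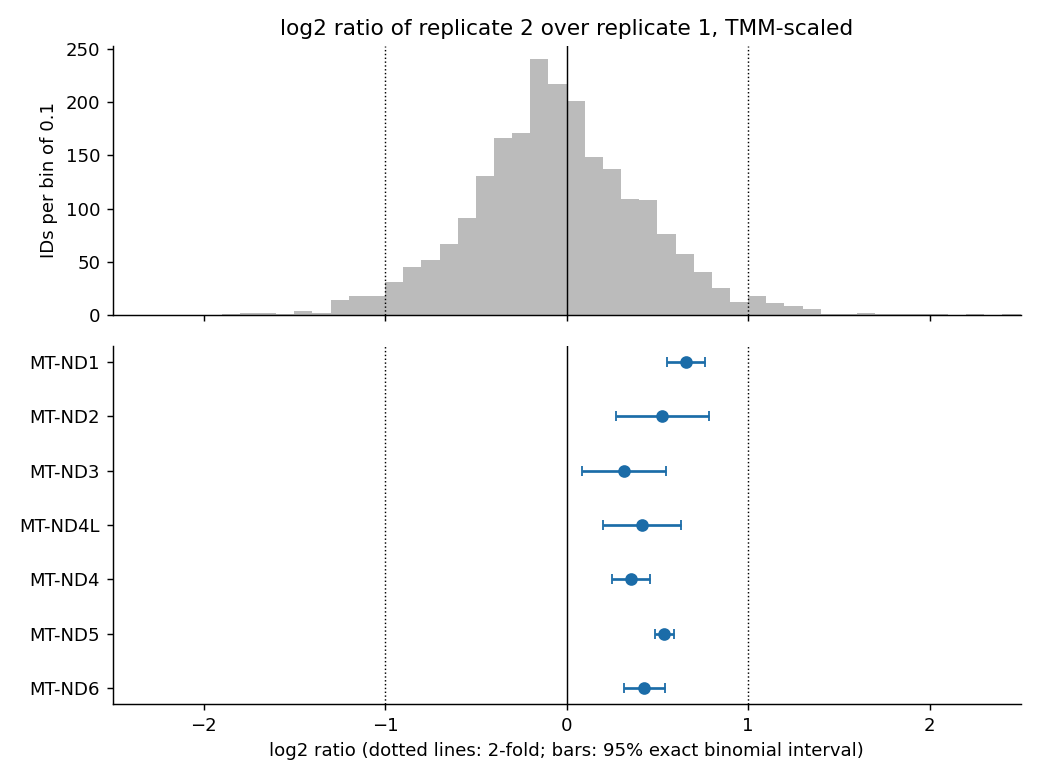
Log2 ratio of replicate 2 over replicate 1 after TMM scaling, as a histogram of the 2241 IDs that reached 100 summed counts (top) and for each complex I mRNA with its 95% exact binomial interval (bottom). All 7 members lie to the right of 0, between 0.32 (MT-ND3) and 0.66 (MT-ND1), and left of the dotted line at 2-fold.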

How the data were processed

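The deposited table holds, per the labels, the authors' estimated counts of 27 to 29 nt fragments per Ensembl ID, unscaled, with 1 column per library; 0 columns belonged to other samples. The submitters' processing notes name hg19. No aligner, counter, annotation or strand setting is given in the sources used here. Members, lists and named genes (all 7 members, and IDs next to them in level) were chosen with earlier results of these data known. The 7 lists (99 symbols, HEK293 markers and nuclear complex I subunits among them) were not used, because 0 of the 57820 IDs occur in the RefSeq table. Planned levels per codon became levels per kb of RefSeq gene length, since no protein table was at hand.

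CPM used all IDs. Ratios used rounded counts, TMM scaling over IDs that reached 20 summed counts (edgeR 4.0.16 in R 4.3.3), and conditional exact binomial intervals; DESeq2 1.42.0 gave an alternative scaling. Shares have exact Clopper-Pearson intervals (scipy 1.17.1). With 1 group no p-value was computed. Totals were 865838 and 611266 counts. Tested on counts simulated for 57820 IDs without added spread, calls beyond 2-fold recovered 98.0% of 4-fold and 100% of 8-fold changes between replicates (100 IDs each), with 0 false calls among 2040 unchanged IDs.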

Additional observations from a re-analysis of the deposited data

How the results depend on the processing

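The summed share of the complex I mRNAs, 1.53%, was 1.94% when the total omitted the 2 highest IDs and 2.00% relative to the IDs outside the mitochondrial rows; both follow from the smaller total. Leaving out 1 replicate gave 1.32% to 1.74% for this share, 52.0% to 53.2% for the share of MT-ND5 in the complex I counts, and 3801 to 5116 fragments per kb per 1000000 counts for MT-ND5. The level of MT-ND5 per kb was 5638 when the total omitted those IDs, and the order of the 7 per kb was unchanged with 60 nt taken off each length; both alternatives were chosen after seeing the data. The count of members beyond 2-fold towards replicate 2 was 0 under TMM with each count minimum (1, 20 and 100), library size, DESeq2 factors, both reduced totals, 99% intervals and a 1.5-fold limit, and 7 where the interval had only to exclude equality. All 7 were higher in replicate 2 under each of these scalings. Rounding moved no share by more than its SD. The lists of nuclear complex I subunits were not run, because their IDs could not be named. Depth limits MT-ND2, MT-ND3 and MT-ND4L most, with 251 to 390.5 counts per library. No paired analysis was possible because the series holds 1 group.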
